A study of Mus musculus with 143 samples.

Results

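Cdc34b and Cdc34 are a pair of mouse genes that share a name root, and they were followed as 2 of the 55573 gene IDs counted in poly(A) libraries and 55487 gene IDs counted in RiboMinus libraries of single mouse oocytes. They were picked by name, because Cdc34b was seen to be about 4 times higher on loss of Dis3 in these same libraries. Its Dis3 differences in poly(A) libraries and in adult RiboMinus libraries, and its comparisons of stage and age, which share libraries with them, are therefore given as descriptions with no test. Its values in oocytes of postnatal day 20 (p20), where the Dis3 difference was nearer to 2-fold, and all values of Cdc34 were tested. As the choice named Dis3 loss without naming a stage, no p20 test of Dis3 loss is independent support for its direction. This holds for the knockout of Dis3 alone and for the double knockout of Dis3 and Exosc10, where the difference was 5.03-fold.

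CDC34 is an E2 ubiquitin-conjugating enzyme. It takes activated ubiquitin from the E1 enzyme and, together with an SCF ubiquitin ligase (SKP1, CUL1, RBX1 and an F-box protein that binds the substrate), builds the ubiquitin chains that send proteins to the proteasome. In oocytes, SCF ligases act on cell-cycle and translation regulators during meiotic maturation. DIS3 and EXOSC10 are the catalytic ribonucleases of the RNA exosome, which degrades and trims RNA.

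RefSeq (assembly GRCm38.p6) places Cdc34 (ENSMUSG00000020307) at chr10:79682193-79688398, a span of 6206 bases, as a protein-coding gene with 3 listed transcripts. It places Cdc34b (ENSMUSG00000020870) at chr11:94741837-94743014, a span of 1178 bases, as a pseudogene with 0 listed transcripts and with Cdc34-ps among its synonyms. Neither span overlapped another RefSeq gene. Their sequences were not compared here, and a read from any sequence that both genes hold could belong to either one. How multiply mapped reads were counted is not given in the sources used here, so each gene's count is uncertain to that extent. The RefSeq promoter table held 1 of the 2 genes, Cdc34. Its window (GRCm38.p6, chr10:79681945-79682244, plus strand) is shown because it lies within the larger region searched for chromatin peaks at this gene. Capitals mark GGGCGG, the GC box bound by SP1 and its relatives, searched on both strands.
Cdc34 promoter: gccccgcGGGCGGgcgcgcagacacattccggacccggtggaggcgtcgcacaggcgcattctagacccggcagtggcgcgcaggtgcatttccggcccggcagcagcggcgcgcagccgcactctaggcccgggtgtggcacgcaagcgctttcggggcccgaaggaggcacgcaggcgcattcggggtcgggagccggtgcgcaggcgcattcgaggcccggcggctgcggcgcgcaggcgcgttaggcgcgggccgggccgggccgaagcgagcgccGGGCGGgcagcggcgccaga
The window had 50 CpG dinucleotides and a GC content of 77.3%. It held 2 copies of the motif, and of 32851 promoter windows of the same length 35.7% held at least 1 copy and 19.5% held at least 2. A match to these letters is a description and not evidence of binding.

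The RNA data cover 119 libraries, each from 1 oocyte. Poly(A) libraries, captured on oligo-dT beads, came from germinal vesicle oocytes (GV, arrested in prophase), GV oocytes held for 3 h in culture (GV3h) and ovulated metaphase II eggs (MII), with 8 control libraries per stage and 15, 16 and 16 Dis3 conditional knockout (cKO) libraries. RiboMinus libraries, depleted of ribosomal RNA and primed with random hexamers, came in groups of 8 from adult GV oocytes (control and Dis3 cKO) and from oocytes of postnatal day 20 (p20), where the groups were control, a knockout of either Dis3 or Exosc10, and the double knockout dcKO. The labels give control as the only genotype of the comparison groups, give no age for the adult females, and say that the mutant mice were made with CRISPR/Cas9. They do not name the Cre driver or the cells in which it acts. Libraries of 1 group may come from the same female. The RiboMinus titles carry a tag shared by 4 libraries (AM1758 and AM1759 for adult controls, AM1713 and AM1757 for adult Dis3 cKO, 1 or 2 within each p20 group), which the labels do not explain, and the poly(A) titles carry none. If libraries share an animal, p-values over libraries are too small.

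Poly(A) libraries held between 4843964 and 15412200 gene counts, and RiboMinus libraries between 8492102 and 35429028. Dis3 had log2 fold changes of -2.18 to -3.63 in the 6 comparisons of Dis3 cKO or dcKO with control. Exosc10 had log2 fold changes of -5.22 in Exosc10 cKO and -4.01 in dcKO. All 8 oocyte markers averaged over 1 CPM (counts per 1000000) in each of the 12 groups, with summed levels between 7648 and 22985 CPM. The 10 granulosa and cumulus markers summed to a group median of 104 CPM in GV control and 69.3 in GV Dis3 cKO, 79.7 and 55.9 at GV3h, and 100.4 and 65.7 at MII. The RiboMinus group medians were 94.0 in adult control, 109.6 in adult Dis3 cKO, 113 in p20 control, and 127.8 to 137 in the 3 p20 knockout groups. Nr5a2 or Cyp19a1 led the sum in every group, and the members of the sum went different ways. From p20 control to dcKO, mean Nr5a2 went from 81.3 to 116 CPM, Cyp19a1 from 28.3 to 4.52 and Has2 from 1.99 to 0.199. From adult control to adult Dis3 cKO, Nr5a2 went from 63.4 to 82.7 CPM and Has2 from 2.75 to 0.647. From GV control to GV Dis3 cKO, Nr5a2 went from 43.4 to 47.1 CPM and Cyp19a1 from 35.6 to 13.8. The part of these cells in the values of Cdc34b and Cdc34 was not tested.

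At the GV stage, the ranges of Cdc34b stood apart between genotypes while those of Cdc34 overlapped. Levels are given in CPM scaled with trimmed-mean normalisation factors (TMM) over all libraries of the assay. The level of Cdc34b in the 8 GV controls ranged from 56.2 to 90.7 CPM with a median of 75.1. In the 15 GV Dis3 cKO libraries it ranged from 226 to 377 CPM with a median of 296. The groups did not overlap, and every cKO library lay above the highest control. Its log2 fold change was 2.03 ± 0.13 (SE), a 4.09-fold difference, which is one of the values that chose the gene. Of all genes, 21.9% were called in this comparison by the quasi-likelihood test of edgeR at a Benjamini-Hochberg adjusted p under 0.05. Cdc34 ranged from 30.2 to 48.3 CPM in the controls (median 39.1) and from 25.1 to 40.5 CPM in the cKO (median 34.3). These ranges overlap, with the cKO libraries toward the low end. For Cdc34 the log2 fold change was -0.26 ± 0.11 (SE) with an edgeR adjusted p of 0.081. With scaling by the ERCC spike-ins, synthetic RNAs added to each lysate, it was -0.53 with an edgeR adjusted p of 0.033. With libraries blocked by the number in their titles it was -0.31 with an edgeR adjusted p of 0.039. These numbers did not pair libraries, as same-numbered GV libraries correlated at -0.14 to 0.17, so that p is not read as a paired test.

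After 3 h of culture the same contrast was seen. Cdc34b ranged from 53.8 to 88.0 CPM in the GV3h controls (median 77.8) and from 298 to 479 CPM in the cKO (median 356), again with no overlap. Its log2 fold change was 2.34 ± 0.13 (SE), also a value behind the choice of the gene, in a comparison in which edgeR called 38.6% of all genes. Cdc34 ranged from 32.8 to 49.9 CPM in the controls (median 40.2) and from 24.3 to 45.4 CPM in the cKO (median 34.1). The ranges of Cdc34 overlapped, and its log2 fold change of -0.26 ± 0.11 (SE) had an edgeR adjusted p of 0.052. That p lies close to the threshold of 0.05, and DESeq2 gave an adjusted p of 0.035 for the same counts. The edgeR adjusted p was 0.022 with libraries blocked by title number and 0.026 with only the groups compared in the fit. At GV3h too the title numbers did not pair libraries, with correlations of -0.06 to 0.07.

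**Figure D1:**
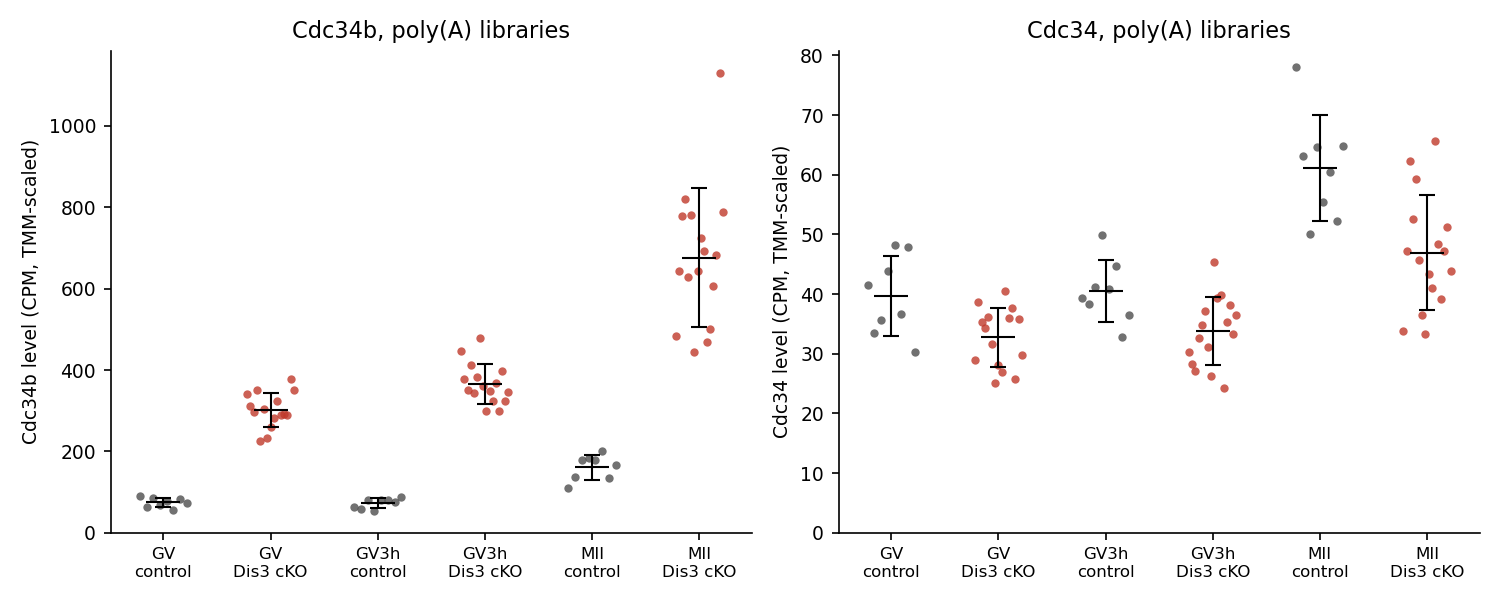
Levels of Cdc34b (left) and Cdc34 (right) in poly(A) libraries, in CPM scaled with TMM factors. Each point is 1 oocyte library, the horizontal mark is the group mean and the bars are 1 SD. Every Dis3 cKO library lies above every control of its own stage for Cdc34b, while the Cdc34 ranges overlap at each stage.

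In MII eggs Cdc34b was also higher in Dis3 cKO, which is again a description. Its level ranged from 111 to 201 CPM in the 8 controls (median 173) and from 446 to 1131 CPM in the 16 cKO libraries (median 664). All 16 cKO libraries lay above the highest control. The log2 fold change was 2.11 ± 0.13 (SE), a 4.31-fold difference, in a comparison in which edgeR called 42.1% of all genes. Ordered by log2 fold change, Cdc34b stood at place 1558 of 17389 genes. The highest library, cKO 15, had the lowest ratio of gene counts to ERCC counts of its group (14.4, against a group mean of 55.5), and leaving out any 1 library kept the log2 fold change between 2.04 and 2.15. Cdc34 moved the other way: it ranged from 49.99 to 78.1 CPM in the controls (median 61.8) and from 33.4 to 65.7 CPM in the cKO (median 46.5). Its log2 fold change was -0.34 ± 0.11 (SE) with an edgeR adjusted p of 0.0084, and 2 of 16 cKO libraries lay above the control mean. The fall of Cdc34 was relative to other genes: with ERCC scaling its log2 fold change was 0.01. That scaling moved the median of all genes in this comparison from 0.16 to 0.52.

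The level of Cdc34b also differed between stages in the controls. From GV to MII its mean went from 74.4 ± 11.9 CPM (SD, n = 8) to 162 ± 30.6 CPM (SD, n = 8), with no overlap. This is a difference of 1.03 ± 0.13 on the log2 scale (SE), a description since these GV controls entered the choice of Cdc34b, in a comparison where 58.5% of all genes were called. Cdc34 rose from 39.7 ± 6.71 CPM to 61.1 ± 8.88 CPM (SD, n = 8 each), or by 0.54 ± 0.13 on the log2 scale (SE, edgeR adjusted p = 0.00018). Both differences are relative to the other genes of the library, whose median log2 fold change was -0.27. Per 1000 ERCC counts, Cdc34b stood at 10.5 ± 1.33 in GV and 5.93 ± 0.978 in MII controls (SD, n = 8 each), and Cdc34 at 5.61 ± 0.880 and 2.27 ± 0.485. The ERCC-scaled log2 fold changes were -0.82 for Cdc34b and -1.30 for Cdc34, opposite in sign to the values above, and the median of all genes on that scale was -2.12. On both scales the 2 genes lay above the median gene.

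In the Dis3 cKO oocytes the MII stage compared with GV in a like manner. Cdc34b differed by 1.11 ± 0.10 on the log2 scale (SE), a description since these GV libraries entered its choice. Cdc34 rose by 0.46 ± 0.09 (SE, edgeR adjusted p = 9.5e-06), where 63.3% of all genes were called. With ERCC scaling the values were -0.23 and -0.76. On the TMM scale the 3 h of culture did not move Cdc34 past the threshold in either genotype. In controls the log2 fold change was -0.06 ± 0.13 (SE) for Cdc34b, as a description, and 0.00 ± 0.13 (SE, edgeR adjusted p = 0.99) for Cdc34, where 2.71% of all genes were called. In Dis3 cKO, where 17.3% were called, it was 0.25 ± 0.09 (SE) for Cdc34b as a description, with the level higher than the GV mean in 14 of 16 GV3h libraries, and 0.01 ± 0.09 (SE) for Cdc34. With ERCC scaling the cKO difference was 0.67 for Cdc34b, and for Cdc34 it was 0.48 and passed the threshold (edgeR adjusted p = 0.012). The Dis3 difference of Cdc34 was not seen to change with stage beyond its error: the interaction was 0.00 ± 0.16 (SE) for GV3h against GV and -0.08 ± 0.16 (SE, edgeR adjusted p = 0.80) for MII against GV, where 2.04% and 13.2% of all genes had a called interaction. With ERCC scaling the MII interaction of Cdc34 had the opposite sign, 0.54 ± 0.27 (SE, edgeR adjusted p = 0.11). For Cdc34b the same interactions were 0.30 ± 0.16 and 0.07 ± 0.16 (SE), as descriptions, and with ERCC scaling 0.49 ± 0.23 and 0.59 ± 0.23 (SE).

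RiboMinus libraries of adult GV oocytes also held Cdc34b at different levels in the 2 genotypes. Its level ranged from 13.3 to 23.3 CPM in the 8 controls (median 15.04) and from 69.7 to 127 CPM in the 8 Dis3 cKO libraries (median 95.3). The groups did not overlap. Cdc34b had a log2 fold change of 2.63 ± 0.16 (SE), a 6.18-fold difference that was also among the values behind the choice, and it was 2.14 with ERCC scaling. Within the cKO group the title tags differed: the 4 libraries tagged AM1713 averaged 118 ± 7.41 CPM and the 4 tagged AM1757 76.7 ± 6.04 CPM (SD, n = 4 each), with no overlap between them. In the controls AM1758 averaged 14.5 ± 2.12 CPM and AM1759 17.4 ± 3.95 CPM (SD, n = 4 each). Since no tag holds both genotypes, tag and genotype cannot be told apart within a tag. Cdc34 ranged from 30.5 to 45.3 CPM in the controls (median 40.2) and from 25.8 to 32.1 CPM in the cKO (median 27.6). Here Cdc34 fell, with a log2 fold change of -0.44 ± 0.09 (SE), an edgeR adjusted p of 0.0012 and 0 of 8 cKO libraries above the control mean, in a comparison that called 28.1% of all genes. With ERCC scaling it was -1.002, where the median gene stood at -0.52. With counts summed per tag, which leaves 2 units in each group, the log2 fold change was -0.50 and the edgeR adjusted p 0.19. These sums called 0 of all genes in this comparison.

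At p20, in growing oocytes of juvenile females, Cdc34b rose in each knockout. Its level ranged from 11.4 to 14.999 CPM in the 8 controls (median 14). In Dis3 cKO it ranged from 18.5 to 36.8 CPM (median 27.5), and in Exosc10 cKO from 15.8 to 53.0 CPM (median 40.0). In dcKO it ranged from 55.2 to 81.5 CPM (median 65.8). In TMM-scaled CPM all 24 knockout libraries lay above the highest control, and every dcKO library lay above every single-knockout library. Per 1000 ERCC counts the ranges were 13.4 to 21.8 in control and 13.3 to 44.9 in Dis3 cKO, which overlap. They were 23.4 to 72.6 in Exosc10 cKO and 60.1 to 131 in dcKO, which also overlap. The log2 fold change against control was 1.05 ± 0.17 in Dis3 cKO (edgeR adjusted p = 3.3e-05, with 7.37% of all genes called), 1.498 ± 0.17 in Exosc10 cKO (edgeR adjusted p = 7.7e-08, with 7.45% called) and 2.33 ± 0.17 in dcKO (edgeR adjusted p = 1.1e-12, with 53.7% called), each with its SE. These are differences of 2.07-fold, 2.83-fold and 5.03-fold, and the 3 comparisons share their controls. With ERCC scaling the log2 fold change was 0.78 in Dis3 cKO (edgeR adjusted p = 0.043). It was 1.47 in Exosc10 cKO (edgeR adjusted p = 9.1e-05) and 2.26 in dcKO (edgeR adjusted p = 7.9e-09). Dis3 is lost in both Dis3 cKO and dcKO, so none of their p-values is independent support for a rise chosen on Dis3 loss. Dis3 cKO and Exosc10 cKO overlapped and were not tested against each other.

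The double knockout differed from each single knockout. Cdc34b was higher in dcKO than in Dis3 cKO by 1.28 ± 0.17 on the log2 scale (SE, edgeR adjusted p = 1.3e-07, with 51.5% of all genes called). It was higher in dcKO than in Exosc10 cKO by 0.83 ± 0.16 (SE, edgeR adjusted p = 8.4e-05, with 49.2% called). The comparison with Exosc10 cKO adds Dis3 loss, so its p is not independent support either. The departure of dcKO from the sum of both single-knockout log2 changes, a comparison chosen after the values were seen, was -0.22 ± 0.23 (SE, edgeR adjusted p = 0.52, with 31.4% of all genes called), with a 95% interval of -0.67 to 0.24. With ERCC scaling it was 0.02. The p20 titles use the tags 1 and 2 in every group, and the ratio of mean Cdc34b CPM to control was 2.15 and 1.96 within these tags in Dis3 cKO, 2.704 and 2.96 in Exosc10 cKO, and 4.87 and 4.94 in dcKO. With counts summed per tag the edgeR adjusted p was 0.0073 in Dis3 cKO, 0.0026 in Exosc10 cKO and 7.7e-05 in dcKO.

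**Figure D2:**
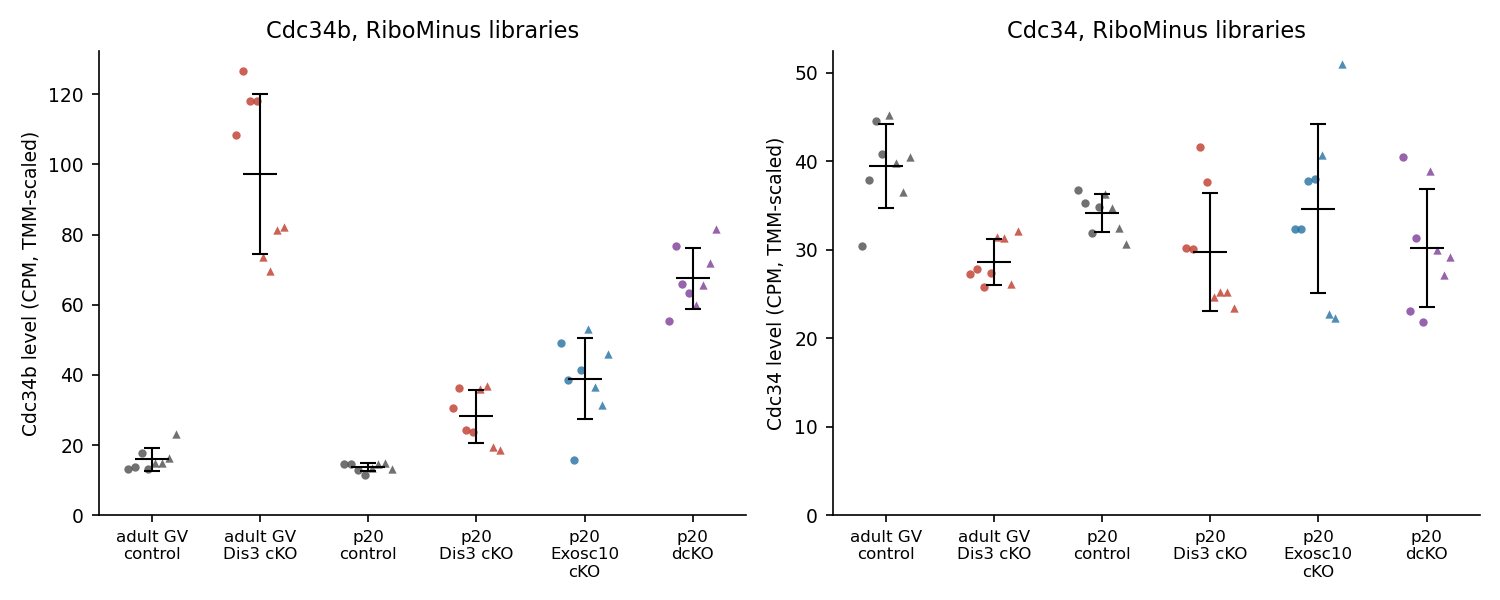
Levels of Cdc34b (left) and Cdc34 (right) in RiboMinus libraries, in CPM scaled with TMM factors. Each point is 1 oocyte library, circles and triangles are the title tags within a group, the horizontal mark is the mean and the bars are 1 SD. Cdc34b in p20 steps from 13.8 CPM in control to 67.5 CPM in dcKO on average, and the adult Dis3 cKO tags lie apart.

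Cdc34 did not pass the threshold in any p20 knockout. It ranged from 30.7 to 36.7 CPM in the controls (median 34.8), from 23.4 to 41.6 CPM in Dis3 cKO (median 27.7), from 22.3 to 51.1 CPM in Exosc10 cKO (median 35.1) and from 21.9 to 40.5 CPM in dcKO (median 29.6). All 4 ranges overlap, and the knockout groups spread more widely than the controls. In Dis3 cKO the title tags differed: tag 1 averaged 34.9 ± 5.72 CPM and tag 2 24.7 ± 0.887 CPM (SD, n = 4 each). The ratio of mean Cdc34 CPM to control within tags 1 and 2 was 1.00 and 0.734 in Dis3 cKO. It was 1.01 and 1.02 in Exosc10 cKO, and 0.841 and 0.932 in dcKO. The log2 fold change of Cdc34 was -0.19 with a 95% interval of -0.48 to 0.10 in Dis3 cKO (edgeR adjusted p = 0.53), and it was -0.52 with ERCC scaling (edgeR adjusted p = 0.10). In Exosc10 cKO it was 0.02 with an interval of -0.28 to 0.31 (edgeR adjusted p = 0.97), and in dcKO -0.14 with an interval of -0.43 to 0.15 (edgeR adjusted p = 0.45). All 3 intervals lie below the log2 fold changes of Cdc34b in the same libraries.

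Between control oocytes of adult and p20 females, Cdc34 did not pass the threshold on the TMM scale. Adult against p20, the log2 fold change was 0.20 ± 0.16 (SE) for Cdc34b, a description since the adult controls entered its choice, and 0.19 ± 0.13 for Cdc34 (SE, edgeR adjusted p = 0.33), where 19.1% of all genes were called. With ERCC scaling these were -1.51 and -1.49, where the median gene stood at -1.69.

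**Figure D3:**
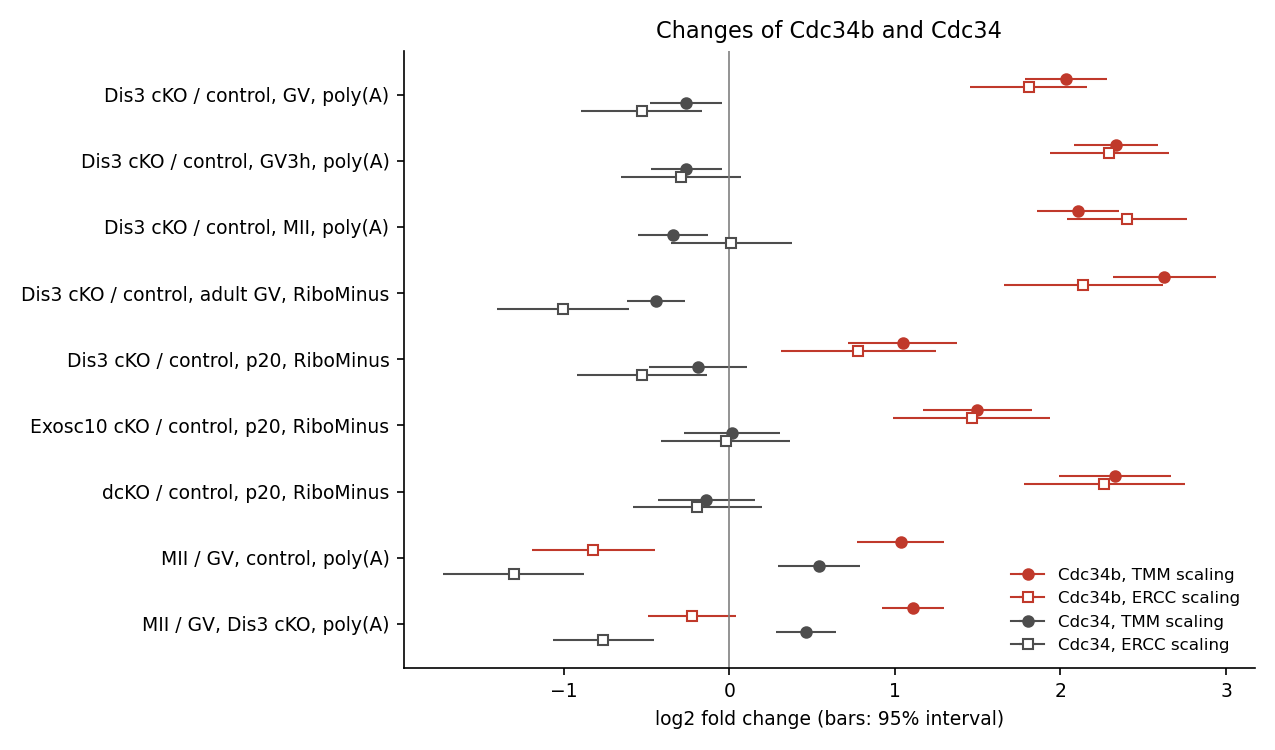
Log2 fold changes of Cdc34b (red) and Cdc34 (grey) in 9 comparisons, with bars for the 95% interval. Filled circles use TMM scaling and open squares use ERCC spike-ins. In the knockout comparisons Cdc34b lies above 0 on both scales, and in the MII comparisons with GV both genes change sign with the scale.

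The ratio of Cdc34b counts to Cdc34 counts within a library needs no scaling factor, so it carries over between the TMM and ERCC views. Its level depends on transcript length and on which reads each library type captures, and neither is known here, so only its change across groups of 1 assay is read. In GV controls the poly(A) ratio ranged from 1.53 to 2.39 (median 1.80), and in GV Dis3 cKO from 6.23 to 11.8 (median 9.24). At GV3h it ranged from 1.08 to 2.40 in controls (median 1.87) and from 6.56 to 15.4 in cKO (median 10.4). In MII eggs it ranged from 1.42 to 3.59 in controls (median 2.71) and from 7.15 to 22.02 in cKO (median 14.9). No cKO library fell into the control range of its stage.

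On the log2 scale the Dis3 difference of the ratio was 2.30 at GV and 2.61 at GV3h, as descriptions. At MII it was 2.44, also a description. Control MII eggs had a higher ratio than control GV oocytes by 0.48, with 7 of 8 MII libraries above the GV mean. Dis3 cKO MII eggs had a higher ratio than Dis3 cKO GV oocytes by 0.63. For GV3h against GV the difference was -0.07 in controls and 0.24 in cKO. These stage differences are descriptions too, since the GV and GV3h libraries entered the choice.

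The ratio in RiboMinus libraries was read on its own scale. Adult GV controls ranged from 0.325 to 0.574 (median 0.387), and adult Dis3 cKO from 2.22 to 4.57 (median 3.55), a log2 difference of 3.05 as a description. The p20 controls ranged from 0.329 to 0.462 (median 0.412), and adult and p20 controls differed by -0.01 on the log2 scale, as a description. At p20 the ratio ranged from 0.588 to 1.45 in Dis3 cKO (median 0.904), from 0.419 to 1.60 in Exosc10 cKO (median 1.25) and from 1.36 to 3.31 in dcKO (median 2.42). The log2 differences from control were 1.22 (exact two-sided permutation p = 0.00016, adjusted p = 0.00039 over 5 ratio comparisons), 1.45 (exact permutation p = 0.00062, adjusted p = 0.00078) and 2.49 (exact permutation p = 0.00016, adjusted p = 0.00039), where 0.00016 is the smallest p that 8 against 8 libraries allow. The dcKO ratio exceeded that of Dis3 cKO by 1.27 (exact permutation p = 0.00062, adjusted p = 0.00078) and that of Exosc10 cKO by 1.04 (exact permutation p = 0.0012, adjusted p = 0.0012). Dis3 loss enters the tests of Dis3 cKO and dcKO against control and of dcKO against Exosc10 cKO. The numerator, Cdc34b, was chosen for its rise on that loss, so these p-values are not independent support.

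**Figure D4:**
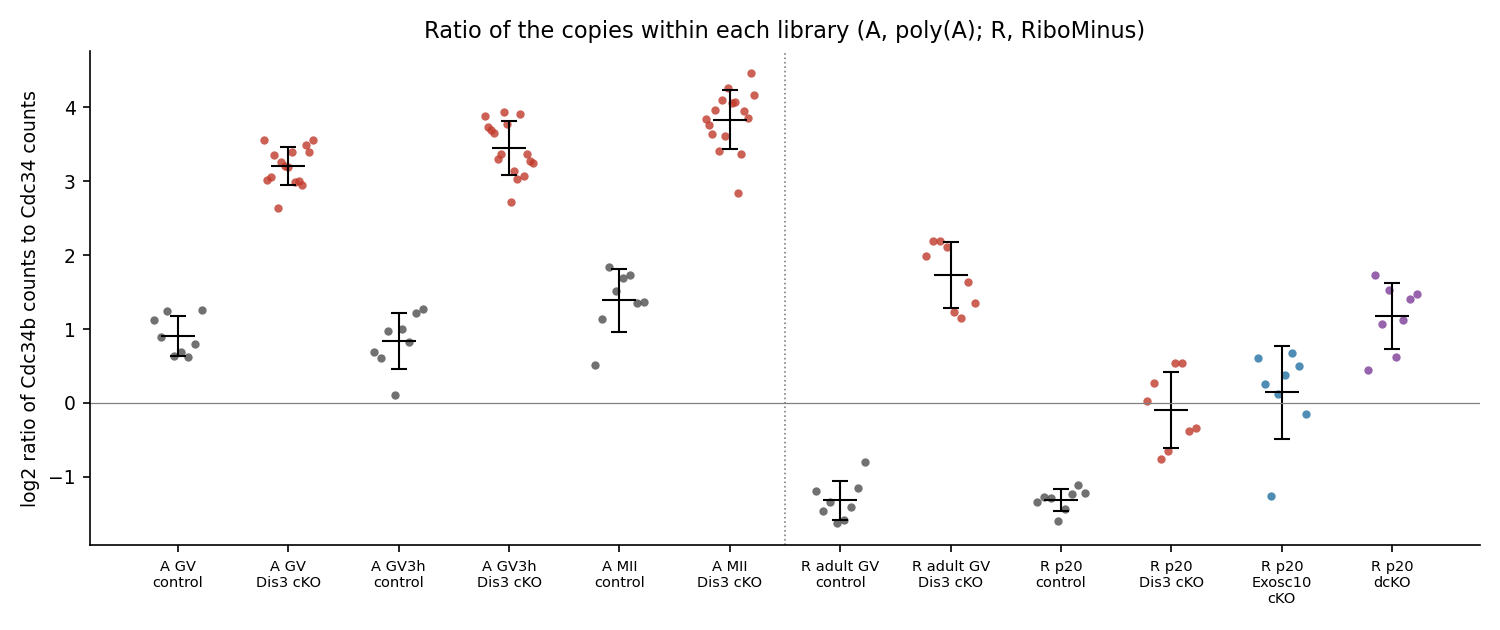
Log2 ratio of Cdc34b counts to Cdc34 counts in each library of the 12 groups, with a pseudocount of 0.5 added to each count. Points are libraries, horizontal marks are means and bars are 1 SD. Knockout libraries lie above the controls of their stage and assay, except that 1 p20 Exosc10 cKO library at -1.25 lies among the p20 controls.

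Reads that both genes could share can be looked at here only through the counts of both genes side by side. Mean Cdc34b gained 227 CPM at GV, 293 at GV3h and 515 at MII in Dis3 cKO, while mean Cdc34 differed by -6.97, -6.73 and -14.1 CPM. In adult RiboMinus libraries the differences were 81.3 CPM for Cdc34b and -10.8 for Cdc34. At p20 they were 14.5 and -4.38 CPM in Dis3 cKO, 25.2 and 0.533 in Exosc10 cKO, and 53.8 and -3.89 in dcKO. Cdc34 was called higher in 0 of these 7 knockout comparisons by edgeR. The part of shared reads in either gene's level was not tested.

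The nearest genes were read for a change of the whole neighbourhood; they were chosen by position after the values of Cdc34b were known. Gm11545, a gene of unassigned function 12115 bases after Cdc34b, had the highest level of the 3 neighbours of Cdc34b with counts. Gm51874 was not analysed here. The mean level of Gm11545 was 41.9 ± 11.6 CPM in GV control and 39.8 ± 11.5 CPM in GV Dis3 cKO (SD, n = 8 and 15). At MII it was 81.1 ± 21.1 and 92.1 ± 26.1 CPM (SD, n = 8 and 16), and in adult RiboMinus libraries 91.9 ± 10.5 and 86.0 ± 12.5 CPM (SD, n = 8 each). Its log2 fold change with Dis3 loss was between -0.35 and 0.22 in 5 comparisons, none past the threshold, and in dcKO it fell by 0.47 (log2 fold change -0.47 ± 0.12, SE, edgeR adjusted p = 0.00099). Tmem92, 34203 bases after Cdc34b, was at 2.22 CPM or less on average and fell in GV3h Dis3 cKO (log2 fold change -1.75 ± 0.60, SE, edgeR adjusted p = 0.016), in adult RiboMinus Dis3 cKO (-1.04 ± 0.38, SE, edgeR adjusted p = 0.0496) and in dcKO (-2.61 ± 0.66, SE, edgeR adjusted p = 0.0012). Next to Cdc34, Tpgs1, a subunit of a tubulin polyglutamylase complex, rose in MII Dis3 cKO (log2 fold change 0.85 ± 0.36, SE, edgeR adjusted p = 0.047, from 1.31 to 2.31 CPM) and in dcKO (0.94 ± 0.23, SE, edgeR adjusted p = 0.00077, from 5.95 to 11.2 CPM). Madcam1, the other neighbour of Cdc34 with a tested change, fell in dcKO (-1.19 ± 0.47, SE, edgeR adjusted p = 0.032, from 2.20 to 0.938 CPM). Gzmm, 622 bases after Cdc34, was not tested in these comparisons. It averaged 0.0069 ± 0.0195 CPM in p20 control and 0.76 ± 0.914 CPM in dcKO (SD, n = 8 each). With sums per tag, the calls of Madcam1 in dcKO (edgeR adjusted p = 0.055) and of Tmem92 in adult Dis3 cKO (edgeR adjusted p = 0.32) were lost.

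CUT&Tag peak lists, made by the authors for each library of pooled oocytes, were searched in the gene bodies and 1000 bases beside their starts. Of 21 lists, for the repressive histone mark H3K27me3 and for RNA polymerase II, 0 had a peak at Cdc34b. That count depends on the window: with 5000 bases beside the start, 8 lists had a peak, namely 3 of 3 adult Dis3 cKO, 2 of 3 adult control and 1 of 3 p20 control polymerase lists, and 1 adult control and 1 dcKO list for H3K27me3. The polymerase lists differed in length, with 88697, 30311 and 122606 peaks in adult Dis3 cKO and 19697, 35843 and 30892 in adult control. In p20 control they held 74287, 82446 and 80765 peaks. The share of all genes with a peak in this window is not given here, so these counts are not read as a difference between groups. At Cdc34, 1 list had a peak, which was for RNA polymerase II in adult Dis3 cKO library 3. It lay 3740 to 4174 bases after the gene's start, with a signal of 2203 against a list median of 2350. The polymerase lists reached between 1.32% and 5.87% of all RefSeq promoters and between 1.22% and 6.62% of windows moved by 50000 bases. The promoter share was the higher in 6 of these 9 lists, for example 2.62% against 2.28% and 5.24% against 4.62%, and the lower in 3. The same check was not run on the H3K27me3 lists.

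Genes of the pathway in which CDC34 acts were read from a list of 64 genes, namely 29 other E2 enzymes, 15 SCF core and control genes, 9 F-box proteins and 11 substrates. All 64 were tested in every comparison. By edgeR's adjusted p, 2 rose and 11 fell with Dis3 loss at GV, which is 20.3% of the list, while 13.6% of all genes rose and 8.33% fell. At GV3h 14 rose and 12 fell (40.6% of the list, against 22.9% and 15.7% of all genes), and at MII 11 rose and 12 fell (35.9%, against 27.3% and 14.8%). In adult RiboMinus libraries 6 rose and 9 fell (23.4%, against 15.7% and 12.4%). At p20, 1 rose and 0 fell in Dis3 cKO (1.56%, against 3.61% and 3.76%), 0 rose and 4 fell in Exosc10 cKO (6.25%, against 3.95% and 3.5%), and 14 rose and 22 fell in dcKO (56.3%, against 26.6% and 27.1%). The list's median log2 fold change lay between -0.08 and -0.01 in these 7 comparisons. From GV to MII in controls, 22 rose and 25 fell, while 22.7% of all genes rose and 35.8% fell. These counts depend on scaling and on the unit: with ERCC scaling, 19 rose and 0 fell at MII, 0 rose and 39 fell in adult Dis3 cKO, and 0 rose and 61 fell from GV to MII. In these comparisons ERCC scaling called 7284, 6843 and 15275 of all genes in either direction. The median log2 fold change of all genes on that scale was 0.52, -0.52 and -2.12. With RiboMinus counts summed per title tag, 0 of the list were called in adult Dis3 cKO, p20 Dis3 cKO and Exosc10 cKO by edgeR, where 8, 4 and 5 were under an unadjusted p of 0.05, and 6 rose and 16 fell in dcKO. Of all genes, these sums called 0 in adult Dis3 cKO, 286 in p20 Dis3 cKO, 174 in Exosc10 cKO and 6641 in dcKO.

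Ube2r2 encodes the E2 closest in kind to CDC34, and its name in RefSeq carries the synonym Cdc34b, so it was matched here by gene ID (ENSMUSG00000036241). Its log2 fold change ranged from -0.27 at GV to 0.90 over the 7 knockout comparisons. It passed the threshold in GV3h Dis3 cKO (0.80 ± 0.24, SE, edgeR adjusted p = 0.0068) and in dcKO (0.90 ± 0.23, SE, edgeR adjusted p = 0.0011), the latter with an edgeR adjusted p of 0.079 when counts were summed per tag. Of the 29 E2 enzymes 0 rose and 1 fell at GV, 8 rose and 1 fell at GV3h, and 3 rose and 3 fell at MII. These are 3.45%, 31.03% and 20.7% of the E2 enzymes, where 21.9%, 38.6% and 42.1% of all genes were called. In p20 Dis3 cKO 1 rose, Ube2t, the E2 of the Fanconi anaemia pathway, from 139 ± 20.5 to 223 ± 27.6 CPM (SD, n = 8 each; log2 fold change 0.70 ± 0.11, SE, edgeR adjusted p = 3.7e-05). This call was lost with ERCC scaling (0.39, edgeR adjusted p = 0.13) and with sums per tag (edgeR adjusted p = 0.060). In adult RiboMinus libraries Ube2f, a NEDD8-conjugating enzyme, had the largest rise among the list's genes past the threshold (0.66 ± 0.24, SE, edgeR adjusted p = 0.043). That call was lost with ERCC scaling (0.14, edgeR adjusted p = 0.73), with no low-count filter (edgeR adjusted p = 0.052) and with sums per tag (edgeR adjusted p = 0.48).

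Among SCF core genes, Cul1, the scaffold, had log2 fold changes of -0.13 to 0.19 over the 7 knockout comparisons and passed the threshold in 0. Skp1a, the adaptor gene, ranged from -0.42 to -0.12 and fell in 5 of 7. Its call at MII was lost with ERCC scaling, where 0 genes of the list were called lower. Rbx1, the RING subunit, ranged from -0.13 to 0.38 and rose in 1, and Cand1, which exchanges F-box proteins, ranged from -0.24 to 0.09 and fell in 1. Glmn, an inhibitor that binds RBX1, fell in several groups: its log2 fold change was -0.88 ± 0.19 at GV (SE, edgeR adjusted p = 0.00021), -0.73 ± 0.19 in Exosc10 cKO (SE, edgeR adjusted p = 0.012) and -1.30 ± 0.19 in dcKO (SE, edgeR adjusted p = 7.9e-07). The fall at GV was not seen in adult RiboMinus Dis3 cKO, where Glmn had -0.10 ± 0.15 (SE, edgeR adjusted p = 0.67). With sums per tag the Exosc10 cKO call was lost (edgeR adjusted p = 0.36). Nedd8, the ubiquitin-like activator of cullins, rose in MII Dis3 cKO from 25.5 ± 9.31 to 72.7 ± 35.3 CPM (SD, n = 8 and 16; log2 fold change 1.56 ± 0.19, SE, edgeR adjusted p = 5.9e-10). It rose by less in dcKO (0.50 ± 0.13, SE, edgeR adjusted p = 0.0013), and in adult RiboMinus Dis3 cKO it fell from 43.5 ± 5.40 to 30.9 ± 2.85 CPM (SD, n = 8 each; log2 fold change -0.48 ± 0.09, SE, edgeR adjusted p = 0.00056). With sums per tag the calls of Nedd8 in dcKO (edgeR adjusted p = 0.075) and in adult Dis3 cKO (edgeR adjusted p = 0.19) were lost, as were those of Skp1a in both and of Cand1 in dcKO. In MII Dis3 cKO Cand2 had a larger fitted change than Nedd8 (2.41, edgeR adjusted p = 0.012), but at mean levels of 0.0281 and 0.198 CPM.

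Among F-box proteins, Skp2 ranged from -0.55 to 0.26 and fell in 1 of 7 knockout comparisons. Btrc ranged from -0.33 to -0.03 and fell in 3, while its relative Fbxw11 ranged from -0.17 to 0.56 and rose in 2. Fbxw7, which targets cyclin E, fell in Exosc10 cKO (log2 fold change -0.67 ± 0.16, SE, edgeR adjusted p = 0.0046), a call lost with ERCC scaling (edgeR adjusted p = 0.19) and with sums per tag (edgeR adjusted p = 0.13). Among substrates, the kinase gene Wee1 rose in GV3h Dis3 cKO from 14.8 ± 3.26 to 52.4 ± 20.4 CPM (SD, n = 8 and 16; log2 fold change 1.83 ± 0.23, SE, edgeR adjusted p = 1.4e-09). The cyclin gene Ccne1 rose there (1.46 ± 0.27, SE, edgeR adjusted p = 1.0e-05) and in dcKO (2.19 ± 0.28, SE, edgeR adjusted p = 5.5e-08). Wee1 also rose in dcKO (log2 fold change 1.28, edgeR adjusted p = 1.4e-06). Of the 11 substrates, 3 rose and 3 fell in dcKO (54.5%), where 53.7% of all genes were called. Cpeb1, a regulator of maternal mRNA translation, fell at GV (-0.66 ± 0.13, SE, edgeR adjusted p = 3.0e-05) and in adult RiboMinus libraries (-0.64 ± 0.12, SE, edgeR adjusted p = 0.00072), the latter with an edgeR adjusted p of 0.19 for sums per tag. From GV to MII in controls the largest fitted falls were Cand2 (-3.51, at 0.436 and 0.0281 CPM) and Ube2m, the other NEDD8-conjugating enzyme (-2.67 ± 0.41, SE, edgeR adjusted p = 6.3e-08).

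**Figure D5:**
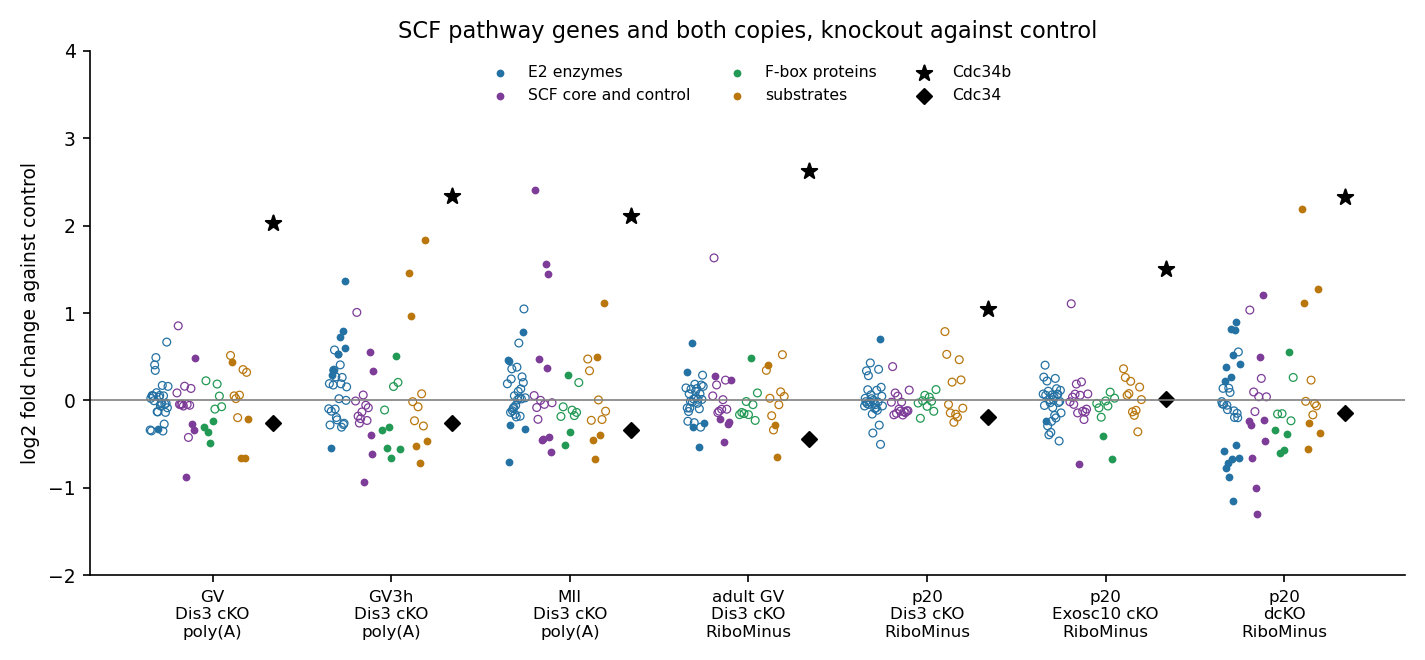
Log2 fold changes, knockout against control, of the 64 pathway genes in 7 comparisons, coloured by group. Filled circles passed an edgeR adjusted p of 0.05 and open circles did not; the star is Cdc34b and the diamond is Cdc34, drawn without regard to the threshold. Cdc34 lies among the pathway genes, and of these genes only Cand2 at MII lies above Cdc34b of the same comparison; Cdc34b was chosen for its change, so its place is a description.

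Genes whose levels followed Cdc34b most closely were ranked among 7547 genes with a mean of at least 10 CPM in each assay, by the smaller of 2 Pearson correlations of log2(CPM + 1), over 71 poly(A) and 48 RiboMinus libraries. The libraries of a point share depth, genotype and stage, so these values are descriptions. The first 5 were Gm11190 (0.92), AA619741 (0.91), Fut10 (0.86), 1500015A07Rik (0.84) and Dusp23 (0.83). Fut10 is named as a fucosyltransferase and Dusp23 as a dual-specificity phosphatase. Gm11190 had log2 fold changes of 3.15 at GV and 3.01 at MII with Dis3 loss, and of 0.61, 1.244 and 3.00 in p20 knockouts of Dis3, of Exosc10 and of both. Cdc34 ranked at place 4897, with a correlation of -0.05 in poly(A) and -0.40 in RiboMinus libraries.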

How the data were processed

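Single mouse oocytes were sequenced in 12 groups (119 RNA libraries), and pooled oocytes by CUT&Tag in 7 groups of 3. Raw counts per Ensembl gene ID and per ERCC RNA were deposited by the authors, 1 column per library. Peak lists with a total signal per peak were deposited by the authors for each library, after sampling to equal reads, per the labels and the series' design. The submitters' processing notes name cutadapt 2.5, STAR 2.7.2a, SAMtools 1.9, HTSeq 0.9.1, SEACR and mm10, with no role. The strand setting, annotation release and treatment of multiply mapped reads are not given in the sources used here.

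Counts were tested with edgeR 4.0.16 (R 4.3.3; quasi-likelihood F test, TMM, filterByExpr, Benjamini-Hochberg, threshold 0.05) in fits of the 6 poly(A) groups (17389 genes), the adult RiboMinus pair (15334), the 4 p20 groups (15882) and all 6 RiboMinus groups for adult against p20 (17267). SE is the log2 fold change divided by the root of F. The ratio used a pseudocount of 0.5 and exact permutation tests. The Dis3 difference of Cdc34b in MII eggs and its differences by stage and age, planned as tests, are given as descriptions, since they share libraries or contrast with its choice. The procedure was tested on simulated counts, the results of which are not given here. Alternatives were DESeq2 1.42.0, ERCC scaling, no filter, a replicate block, only the groups compared, sums per title tag, each library left out, and for peaks a window of 5000 bases and peaks above the median signal. Fits without 1 library kept the full fit's dispersion trend; these and the departure from additivity were added after the values were seen. The members, lists and the rule for named genes (pathway core, 2 largest changes, 5 most alike) were chosen with earlier results of these data known. Symbols matched 99.7% and 99.4% of IDs. Of the pairs of libraries within a group, 0 were identical. The GV Dis3 cKO oocyte numbered 9 and the IgG samples were not analysed here.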

Additional observations from a re-analysis of the deposited data

Results flagged for a closer look

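In 2 of 27 sets of 8 libraries read for Cdc34b level, Cdc34 level or their log2 ratio, 1 library stood far from the others; chance alone gives this in about 1 in 20 such sets. The adult RiboMinus control AM1759_4 had 23.3 CPM of Cdc34b, where the other controls had 13.3 to 17.6 CPM. The p20 Exosc10 cKO library 1_3 had a log2 ratio of Cdc34b to Cdc34 of -1.25, where the others had -0.15 to 0.68. Without any 1 library the p20 Exosc10 cKO difference of the log2 ratio stayed between 1.38 and 1.65.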

How the results depend on the processing

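Cdc34b kept its sign in every knockout comparison with control in which each setting was run, and its side of the threshold in the 3 tested at p20, under DESeq2, no low-count filter, only the groups compared, the replicate block, sums per title tag, ERCC scaling and each library left out. The replicate block and the fit of only the groups compared were not run for the adult RiboMinus pair, whose tags share no numbers and whose fit holds only that pair, and sums per tag apply only to RiboMinus libraries. Stage and age comparisons depend on scaling, since ERCC scaling moves the median of all genes; the causes of the other changes were not tested. Each library held at least 172 counts of either gene, and the effect of depth was not tested. Whether each lysate received the same amount of spike-in was not tested.

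With ERCC scaling, Cdc34b had log2 fold changes of 2.14 (adult Dis3), 2.40 (MII), -1.51 (control adult against p20), 0.67 (cKO GV3h against GV), -0.23 (cKO MII against GV), 0.19 (control GV3h against GV), -0.82 (control MII against GV), 0.018 (departure from additivity) and 0.59 (MII interaction). Cdc34 had -1.49 (adult against p20), -0.022 (Exosc10 cKO), -0.53 (GV), 0.012 (MII), 0.48 (cKO GV3h against GV, edgeR adjusted p = 0.012), -0.76 (cKO MII against GV), -1.30 (control MII against GV) and 0.54 (MII interaction). Ube2r2 had -1.23 from GV to MII and -0.46 in adult Dis3 cKO. ERCC scaling called 6843 genes in adult Dis3 cKO, 14869 in adult against p20, 364 in Exosc10 cKO, 5015 in dcKO against Exosc10 cKO, 2155 for the departure from additivity, 6434 for cKO GV3h against GV, 118 for control GV3h against GV, 15275 for control MII against GV and 5237 for the MII interaction. Of the pathway list it called 0 higher and 39 lower in adult Dis3 cKO, 0 higher in p20 Dis3 cKO, 1 lower in Exosc10 cKO, 7 higher in dcKO, 0 higher at GV, 5 higher and 6 lower at GV3h, 19 higher and 0 lower at MII, and 0 higher and 61 lower from GV to MII. Of all genes, ERCC scaling also called 968 in p20 Dis3 cKO, 6071 in dcKO, 3582 at GV, 4896 at GV3h and 7284 at MII.

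Sums per title tag, which leave 2 units a group, gave Cdc34 -0.50 in adult Dis3 cKO (edgeR adjusted p = 0.19) and -0.011 for the departure from additivity, Ube2r2 -0.014 in adult Dis3 cKO, and 0 genes called in adult Dis3 cKO, 237 in adult against p20, 286 in p20 Dis3 cKO, 174 in Exosc10 cKO and 1307 for the departure from additivity. Of the pathway list they called 0 higher and 0 lower in adult Dis3 cKO, 0 higher in p20 Dis3 cKO, 0 lower in Exosc10 cKO and 6 higher in dcKO, counts added after the data were seen. In dcKO the sums called 6641 of all genes. DESeq2 gave Cdc34 -0.27 at GV3h (adjusted p = 0.035) and -0.017 for the GV3h interaction, Ube2r2 -0.019 at MII, and 545 genes for the GV3h interaction. Fitting only the groups compared gave Cdc34 -0.27 at GV3h (edgeR adjusted p = 0.026), Ube2r2 -0.011 at MII, and 4336 genes at MII and 2083 for control GV3h against GV. With no low-count filter Ube2r2 had -0.023 at MII.

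Numbers in the titles did not pair libraries: same-numbered libraries correlated at -0.14 to 0.17 in GV, and every pair exceeded 0.1 in 0 comparisons. With the replicate block Cdc34 had -0.31 at GV (edgeR adjusted p = 0.039), -0.31 at GV3h (edgeR adjusted p = 0.022), -0.0092 in Exosc10 cKO, -0.0035 for cKO GV3h against GV and -0.0042 for the GV3h interaction, and Ube2r2 -0.049 at MII.

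Leaving out each library in turn, the log2 fold change of Cdc34 ranged from -0.079 to 0.087 in Exosc10 cKO, -0.042 to 0.13 for dcKO against Dis3 cKO, -0.065 to 0.12 for the departure from additivity, -0.024 to 0.034 for cKO GV3h against GV, -0.044 to 0.047 for control GV3h against GV and -0.044 to 0.052 for the GV3h interaction. At GV it ranged from -0.31 to -0.22 and passed the threshold without control 8 (edgeR adjusted p = 0.043). At GV3h it ranged from -0.30 to -0.21 and passed without any one of control 7 and 8 and cKO 6, 9, 10, 11 and 14 (lowest edgeR adjusted p = 0.027). Cdc34b ranged from 0.21 to 0.27 for cKO GV3h against GV and from -0.11 to 0.013 for control GV3h against GV. The log2 ratio difference ranged from -0.082 to 0.036 for adult against p20 controls, 0.20 to 0.29 for cKO GV3h against GV and -0.13 to 0.034 for control GV3h against GV, where group medians gave 0.056. With a window of 5000 bases, Cdc34b had an H3K27me3 peak in 1 adult control and 1 dcKO list and a polymerase peak in 2 adult control, 1 p20 control and 3 adult Dis3 cKO lists, and Cdc34 had an H3K27me3 peak in 2 dcKO lists. The polymerase peak at Cdc34 was in 0 lists when peaks above the median signal were kept.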
